A study of Homo sapiens with 10 samples.

Results

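The genes described here are those that burn fatty acids and the branched-chain amino acids leucine, isoleucine and valine, with 3 of their transcriptional regulators. They were taken from the deposited expression table by gene symbol, and 33 of the 34 named genes were found among 16734 genes. These are 19 genes of mitochondrial fatty acid oxidation, 4 of the peroxisomal pathway, 8 of branched-chain amino acid breakdown and 2 regulators. The regulator gene PPARGC1A was not analysed here. MIA PaCa-2, an established human line of pancreatic ductal adenocarcinoma cells, was kept for 24 h either in 10 µM hydroxyprogesterone caproate (HPC), a synthetic progestin, or in an equal volume of its solvent, DMSO. Both groups grew in DMEM with fetal bovine serum and antibiotics, and neither carried an engineered allele. Poly(A) RNA was sequenced from 5 libraries per group, which the labels call biological replicates without naming separate cultures or days, so a p-value here reflects only how much these libraries varied, which may be technical. Levels are given as FPKM, a measure of fragments that allows for gene length and for library depth.

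In mitochondrial beta oxidation a long-chain fatty acid is joined to carnitine, carried across the inner membrane and handed back to coenzyme A. Each turn of the cycle then oxidises, hydrates, oxidises again and cleaves the chain, which releases acetyl-CoA and passes electrons through the electron transfer flavoprotein to the respiratory chain. Peroxisomes run a similar cycle with their own enzymes, mainly on very long and branched chains. Branched-chain amino acids lose their amino group to a transaminase and are committed to breakdown by the branched-chain keto acid dehydrogenase complex. Their products then pass through acyl-CoA dehydrogenases related to those of fat oxidation and through further enzymes, among them carboxylases.

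The libraries held between 65851927 and 82219086 reads, as recovered from the FPKM values, and libraries of a group correlated at r of 0.989 to 0.994. The keratin genes KRT8, KRT18 and KRT19 and the mesenchymal gene VIM were expressed (mean 51.8, 114, 24.0 and 695 FPKM in DMSO and 57.7, 150, 10.1 and 333 FPKM in HPC). The keratin gene KRT7 was low, at 0.226 and 0.0352 FPKM, and the epithelial markers EPCAM and CDH1 did not exceed 0.0111 FPKM in any library. Of 11 marker genes of acinar, endocrine, blood, endothelial and fibroblast cells, 7 were in the table, and 6 of these stayed at or below 0.0665 FPKM. The exception was the endothelial gene CDH5, so that the 7 summed to between 1.46 and 1.55 FPKM in DMSO and between 0.0185 and 0.023 FPKM in HPC. GCG, PTPRC and DCN, markers of endocrine cells, blood cells and fibroblasts, were at 0 in every DMSO library. Genes encoded by mitochondria held 21.9% to 23.8% of the FPKM in DMSO libraries and 13.8% to 15.9% in HPC libraries. The part of these differences in the results below was not tested.

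Most of the listed genes were lower in HPC. Among the 32 genes that reached 1 FPKM in at least 5 libraries, 28 were lower and 4 higher with HPC, and 0 missed the threshold (limma, Benjamini-Hochberg adjusted p under 0.05). The share that was lower, 87.5%, compares with 44.8% of all 9150 tested genes, and the share that was higher compares with 42.9%. Since 87.7% of all tested genes were called in either direction, a call by itself says little, and the size of the change is given beside it. At least 1.5-fold lower levels were found for 21 of the 32 genes (65.6%), against 20.3% of all tested genes. The median log2 fold change was -0.79 for the 32 genes and -0.01 for all tested genes. The members were chosen with earlier results of these data known. How far that choice shaped these differences from all tested genes was not tested. The ranges of the groups were separate in 30 of the 32 genes, all but CPT1A and IVD, which held for 79.6% of all tested genes. FPKM depends on what else a library holds, and scaling each library by its total without mitochondrially encoded genes moved the median of all tested genes to -0.19 and that of the members to -0.95. The split of all called genes then went from 51.1% to 63.4% lower, and 29 members were lower and 3 higher, with ACOX3 now past the filter and CPT1A short of the threshold.

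Most of these genes had low FPKM values, and that bears on the counts. HADH and ACAA1 passed the filter only through their DMSO values, and the peroxisomal oxidase gene ACOX3 did not pass. With no filter on low values all 33 genes were tested, 29 were lower and 4 higher, against 36.2% of 16734 genes that were lower and 31.2% that were higher. Among the 28 members at 1 FPKM or more in all 10 libraries, 24 were lower and 4 higher, against 42.8% of such genes that were lower. FPKM measures a share of a library, so less RNA per cell and fewer cells that express a gene cannot be told apart.

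**Figure D1:**
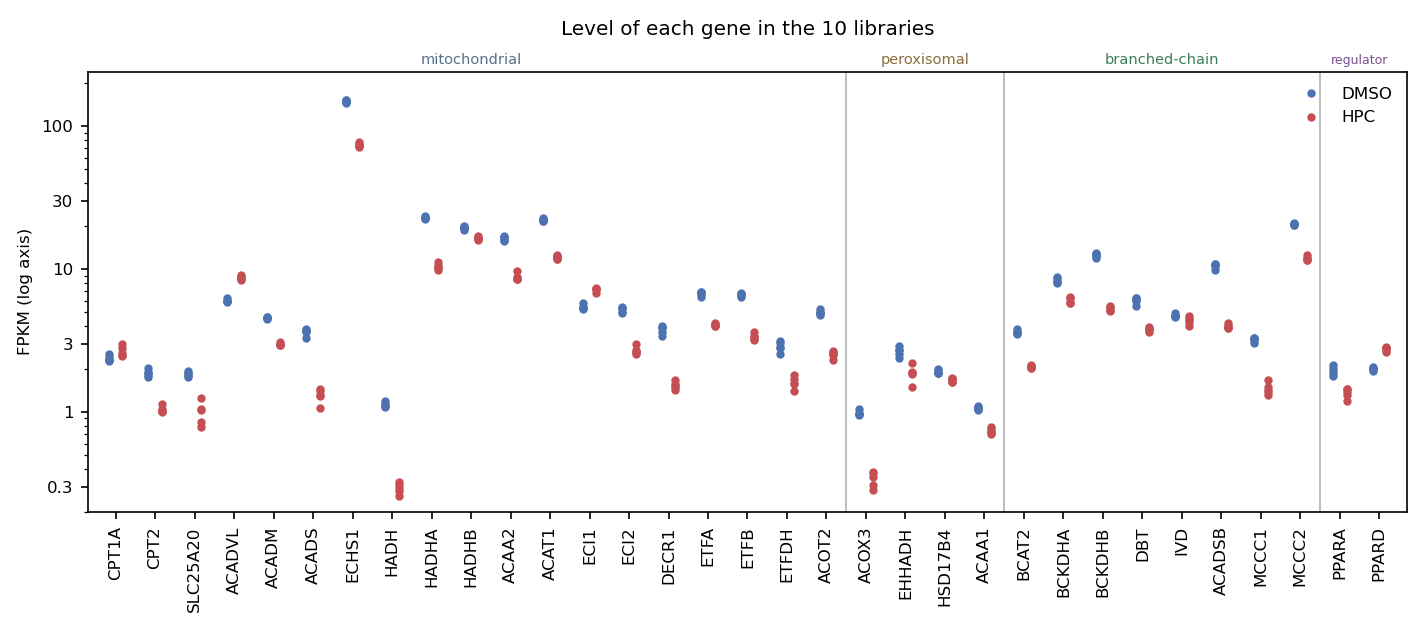
FPKM of the 33 genes in each library on a log axis, with 5 DMSO libraries in blue and 5 HPC libraries in red, ordered by pathway. ECHS1 stands above the other genes in both groups, and in most genes the red points lie below the blue ones.

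A stretch of DNA is shown first for the pair HADHA and HADHB, since these genes lie head to head and changed by different amounts. HADHA (chr2:26190635-26244726, minus strand) and HADHB (chr2:26243170-26290468, plus strand) encode the alpha and beta subunits of the mitochondrial trifunctional protein, the membrane complex that carries out the later steps of the cycle on long chains. Coordinates of genes are those of GENCODE 29 on GRCh38, in which the exons of the pair share no base. In the RefSeq table of promoters (GRCh38.p14) their start sites are separated by 306 bases, and the windows of 300 bases around each start share 194 bases. The HADHB window, chr2:26244689-26244988 on the plus strand, is printed with the shared bases in capitals.

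HADHB window: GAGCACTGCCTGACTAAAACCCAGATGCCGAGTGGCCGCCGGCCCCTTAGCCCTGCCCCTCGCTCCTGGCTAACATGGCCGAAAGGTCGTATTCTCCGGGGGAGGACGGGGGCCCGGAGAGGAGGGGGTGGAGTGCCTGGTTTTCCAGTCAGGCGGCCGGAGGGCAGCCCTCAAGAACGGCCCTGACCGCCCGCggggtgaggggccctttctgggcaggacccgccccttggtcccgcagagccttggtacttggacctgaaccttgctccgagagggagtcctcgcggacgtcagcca

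HADHA measured 23.1, 22.7, 22.4, 22.8 and 23.6 FPKM in the 5 DMSO libraries and 10.2, 9.85, 10.6, 11.2 and 10.5 FPKM in the 5 HPC libraries. The groups were far apart, and the fall was 2.18-fold on the fitted scale (log2 fold change -1.12 ± 0.032 SE, limma adjusted p = 1.36e-12). HADHB measured 18.8, 19.4, 19.3, 20.003 and 19.8 FPKM in DMSO and 16.1, 16.1, 16.5, 16.8 and 16.99 FPKM in HPC. Its groups did not overlap either, but the fall was 1.18-fold (log2 fold change -0.24 ± 0.026 SE, limma adjusted p = 1.17e-06). Within a library the ratio of HADHA to HADHB does not depend on how libraries are scaled. That ratio was 1.18 ± 0.0335 in DMSO and 0.634 ± 0.0199 in HPC (SD, n = 5), lower in all 5 HPC libraries than in any DMSO library (exact two-sided permutation p = 0.00794, adjusted over 6 ratios 0.00952). For this and the later ratios, how often ratios of other gene pairs separate the groups was not examined. Single genes did so in 79.6% of all tested genes, so separation by itself says little.

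The carnitine shuttle moved in 2 directions. CPT1A (chr11:68754620-68844410, minus strand), which makes the carnitine ester at the outer membrane and sets the pace of long-chain oxidation, measured 2.55, 2.44, 2.30, 2.28 and 2.32 FPKM in DMSO. In HPC it measured 2.60, 2.50, 2.45, 3.01 and 2.80 FPKM, and the groups overlapped. The rise of 0.16 ± 0.056 SE on the log2 scale passed the test (limma adjusted p = 0.0153), but once each library was scaled by its total without the mitochondrially encoded genes the difference was -0.00031 (adjusted p = 0.996). CPT2, which returns the chain to coenzyme A inside mitochondria, fell from 1.88 ± 0.103 to 1.04 ± 0.0562 FPKM, and SLC25A20, the carrier between them, from 1.83 ± 0.0709 to 0.993 ± 0.187 FPKM (SD, n = 5). SLC25A20 varied most among HPC libraries of all 33 genes, with a coefficient of variation of 18.8%, and replicate 4 was highest at 1.26 FPKM. The ratio of CPT1A to CPT2 was 1.27 ± 0.0365 in DMSO and 2.56 ± 0.154 in HPC (SD, n = 5), higher in all 5 HPC libraries (exact permutation p = 0.00794, adjusted 0.00952).

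The acyl-CoA dehydrogenases, which open each turn and divide the work by chain length, split between very long chains and the rest. ACADVL (chr17:7217125-7225273), for very long chains, measured 5.93, 6.29, 5.98, 5.91 and 5.98 FPKM in DMSO and 9.13, 8.81, 8.75, 8.41 and 8.54 FPKM in HPC. Every HPC library was above every DMSO library, and the rise was 1.44-fold (log2 fold change 0.53 ± 0.030 SE, limma adjusted p = 1.11e-09). ACADM, for medium chains, fell from 4.58 ± 0.0540 to 2.98 ± 0.0612 FPKM (SD, n = 5). ACADS (chr12:120725735-120740008), for short chains, measured 3.74, 3.65, 3.71, 3.30 and 3.79 FPKM in DMSO and 1.31, 1.28, 1.41, 1.07 and 1.46 FPKM in HPC. That is a 2.67-fold fall on the fitted scale (log2 fold change -1.42 ± 0.070 SE, adjusted p = 3.42e-10), with replicate 4 lowest in both groups. The order of the 3 enzymes by FPKM therefore kept ACADVL first and ACADS last, while the ACADVL mean moved from 6.02 to 8.73 FPKM and the ACADS mean from 3.64 to 1.30 FPKM. That order depends on the gene lengths used for FPKM.

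All 6 genes of the hydratase, hydroxyacyl-CoA dehydrogenase and thiolase steps were lower. ECHS1, the short-chain enoyl-CoA hydratase (chr10:133362480-133373689), had the highest FPKM of the 33 genes. That rank depends on the gene lengths used, since HADHA held more reads (17456 to 47680 in a library, against 6074 to 16107 for ECHS1). ECHS1 measured 151, 144, 153, 152 and 149 FPKM in DMSO. In HPC it measured 72.6, 75.0, 77.3, 73.5 and 72.2 FPKM, with no overlap. HADH (chr4:107989714-108035175), the dehydrogenase for medium and short chains, measured 1.08, 1.19, 1.14, 1.12 and 1.10 FPKM in DMSO and 0.308, 0.257, 0.291, 0.324 and 0.281 FPKM in HPC. It had the lowest fold change of the tested members, -1.65 ± 0.058 SE on the log2 scale (limma adjusted p = 1.15e-11), and since it passed the filter only through DMSO a difference was needed for it to be tested. Its size rests on the pseudocount: in place of 0.1 FPKM, 1 FPKM gave -0.72 and 0.01 FPKM gave -1.91. The thiolase ACAA2, which cleaves the chain, fell from 16.5 ± 0.539 to 8.78 ± 0.485 FPKM (SD, n = 5). ACAT1, a thiolase shared by ketone body metabolism and isoleucine breakdown, fell from 22.1 ± 0.518 to 12.1 ± 0.284 FPKM.

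Unsaturated chains need helper enzymes, and these did not move together. ECI1 (chr16:2239395-2252300), a mitochondrial enoyl-CoA isomerase, measured 5.77, 5.36, 5.45, 5.23 and 5.45 FPKM in DMSO and 7.26, 7.24, 7.39, 6.77 and 7.29 FPKM in HPC. All 5 HPC values lay above the DMSO values, a rise of 0.39 ± 0.033 SE on the log2 scale (limma adjusted p = 9.08e-08). ECI2, an isomerase found in mitochondria and peroxisomes, fell from 5.19 ± 0.203 to 2.701 ± 0.160 FPKM, and DECR1, the dienoyl-CoA reductase, from 3.76 ± 0.237 to 1.54 ± 0.0920 FPKM (SD, n = 5). In GENCODE 29, 27.1% of the exon bases of ECI2 lie opposite exons of C6orf201, which was listed at a mean of 0.0214 FPKM in DMSO and 0.0159 in HPC.

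The electron transfer genes and a thioesterase gene were lower as well. ETFA and ETFB encode the subunits of the flavoprotein that takes electrons from the dehydrogenases, and they fell from 6.76 ± 0.233 to 4.09 ± 0.0707 and from 6.64 ± 0.151 to 3.36 ± 0.170 FPKM (SD, n = 5). Their ratio, ETFA to ETFB, moved from 1.02 ± 0.0486 to 1.22 ± 0.0601, a small shift without overlap (exact permutation p = 0.00794, adjusted 0.00952, n = 5). ETFDH, which hands the electrons on to ubiquinone, fell from 2.87 ± 0.2298 to 1.62 ± 0.161 FPKM. Of its exon bases 10.9% lie opposite exons of PPID, which was listed at 12.4 FPKM in DMSO and 18.2 FPKM in HPC, and whether the counting used strand is not given in the sources used here. ACOT2, which releases free fatty acid from coenzyme A in mitochondria, was listed at 4.98 ± 0.176 FPKM in DMSO and 2.54 ± 0.145 FPKM in HPC. Its level is uncertain, because 32.6% of the 100-base stretches of its longest transcript also occur in the neighbouring copy ACOT1.

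Summed over the 19 mitochondrial genes, expression was 288 ± 2.96 FPKM in DMSO and 163 ± 2.37 FPKM in HPC (SD, n = 5). ECHS1 made up much of that sum in FPKM, a share that depends on the gene lengths used. Without ECHS1 the other 18 genes summed to 138 ± 0.849 and 88.9 ± 1.40 FPKM.

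**Figure D2:**
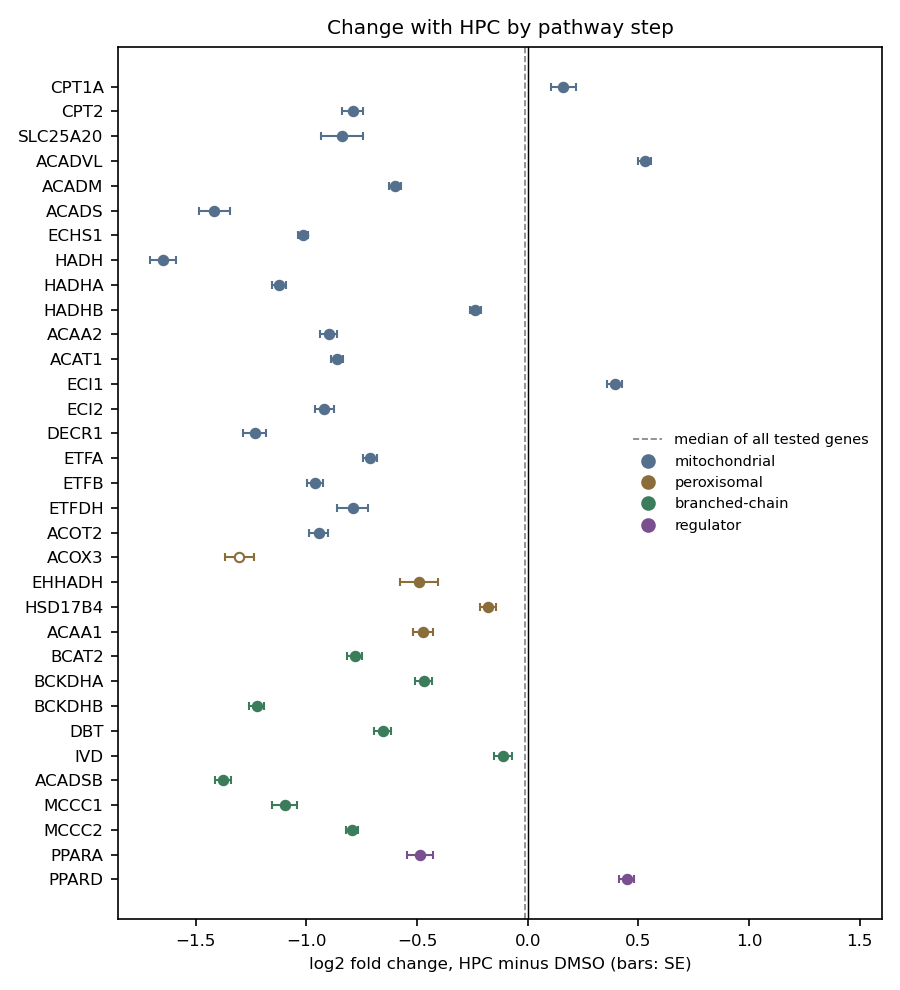
Log2 fold change of each gene, HPC minus DMSO, with its SE, in pathway order; the open circle is ACOX3, which was fitted only without a filter, and the dashed line is the median of all tested genes, -0.01. CPT1A, ACADVL, ECI1 and PPARD lie to the right of 0, and the other 29 genes to the left.

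The 4 peroxisomal members had low FPKM values, and all were lower when tested with no filter. ACOX3 changed most among them. This acyl-CoA oxidase gene, whose product handles branched chains, measured 0.983, 0.964, 0.948, 1.04 and 0.961 FPKM in DMSO and 0.372, 0.284, 0.380, 0.347 and 0.309 FPKM in HPC, a log2 fold change of -1.30 ± 0.065 SE with no filter (limma adjusted p = 1.07e-08). EHHADH, the bifunctional enzyme of hydration and dehydrogenation, measured 2.72, 2.90, 2.69, 2.54 and 2.38 FPKM in DMSO and 1.49, 1.84, 1.86, 2.21 and 1.91 FPKM in HPC. The highest HPC library, replicate 4, came close to the lowest DMSO library, and the difference was -0.49 ± 0.085 SE on the log2 scale (limma adjusted p = 0.000113). HSD17B4, a multifunctional enzyme that acts on very long and branched chains, fell from 1.91 ± 0.0499 to 1.67 ± 0.0554 FPKM (SD, n = 5). Behind its low FPKM lay between 7512 and 11530 reads in a library. ACAA1, the peroxisomal thiolase, fell from 1.06 ± 0.0295 to 0.739 ± 0.0332 FPKM, and 19.7% of its exon bases lie opposite exons of DLEC1, listed at 0.0117 FPKM in DMSO and 0.0195 FPKM in HPC. The 3 members tested with the filter had a median log2 fold change of -0.47, against -0.86 for the 19 mitochondrial genes, and the difference between these groups was not tested.

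All 8 branched-chain genes were lower, with a median log2 fold change of -0.79 and values from -1.38 to -0.11. BCAT2, the mitochondrial transaminase, measured 3.79, 3.64, 3.55, 3.59 and 3.54 FPKM in DMSO and 2.02, 2.14, 2.05, 2.08 and 2.02 FPKM in HPC. Both groups were tight and well apart (log2 fold change -0.78 ± 0.033 SE, limma adjusted p = 6e-11). The keto acid dehydrogenase complex is built from BCKDHA and BCKDHB, which form its decarboxylase, and DBT, the transacylase core. BCKDHB (chr6:80106647-80346270) measured 11.9, 12.4, 12.8, 12.9 and 12.5 FPKM in DMSO and 5.16, 5.17, 5.52, 5.10 and 5.46 FPKM in HPC, a 2.34-fold fall. BCKDHA fell from 8.36 ± 0.352 to 6.01 ± 0.272 FPKM and DBT from 6.03 ± 0.320 to 3.79 ± 0.107 FPKM (SD, n = 5).

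The transcripts of that complex did not fall in proportion. The ratio of BCKDHA to BCKDHB measured 0.670, 0.655, 0.673, 0.643 and 0.708 in DMSO and 1.11, 1.22, 1.07, 1.23 and 1.06 in HPC. BCKDHB thus had the higher FPKM in all 5 DMSO libraries, and BCKDHA in all 5 HPC libraries. The shift in the ratio does not depend on gene length (exact permutation p = 0.00794, adjusted 0.00952). Which subunit transcript was more abundant does depend on the gene lengths used for FPKM, which are not given. The ratio of DBT to BCKDHA was 0.723 ± 0.0583 in DMSO and 0.631 ± 0.0191 in HPC, with overlapping values (exact permutation p = 0.0238, adjusted 0.0238, n = 5). The level of BCKDHA is uncertain, since 63.8% of its exon bases are shared with the read-through gene AC011462.1 on the same strand, which was listed at 0.00315 FPKM in DMSO and 0.00780 FPKM in HPC.

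Further along these routes the changes ranged widely. ACADSB (chr10:123008979-123058311), the dehydrogenase of the isoleucine route, measured 9.78, 10.5, 10.9, 10.7 and 10.9 FPKM in DMSO and 3.96, 4.204, 3.86, 4.05 and 3.90 FPKM in HPC. This was a 2.60-fold fall (log2 fold change -1.38 ± 0.036 SE, limma adjusted p = 5.82e-13). IVD, the dehydrogenase of the leucine route, measured 4.61, 4.70, 4.92, 4.71 and 4.67 FPKM in DMSO and 4.53, 4.67, 4.38, 4.01 and 4.23 FPKM in HPC. Its groups overlapped, and the difference of -0.11 ± 0.040 SE just passed (adjusted p = 0.0173). MCCC1 and MCCC2, the subunits of the next enzyme of leucine breakdown, fell from 3.22 ± 0.107 to 1.45 ± 0.142 and from 20.7 ± 0.339 to 11.9 ± 0.405 FPKM (SD, n = 5). Their ratio, MCCC1 to MCCC2, moved from 0.156 ± 0.00617 to 0.122 ± 0.00770 without overlap (exact permutation p = 0.00794, adjusted 0.00952, n = 5).

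**Figure D3:**
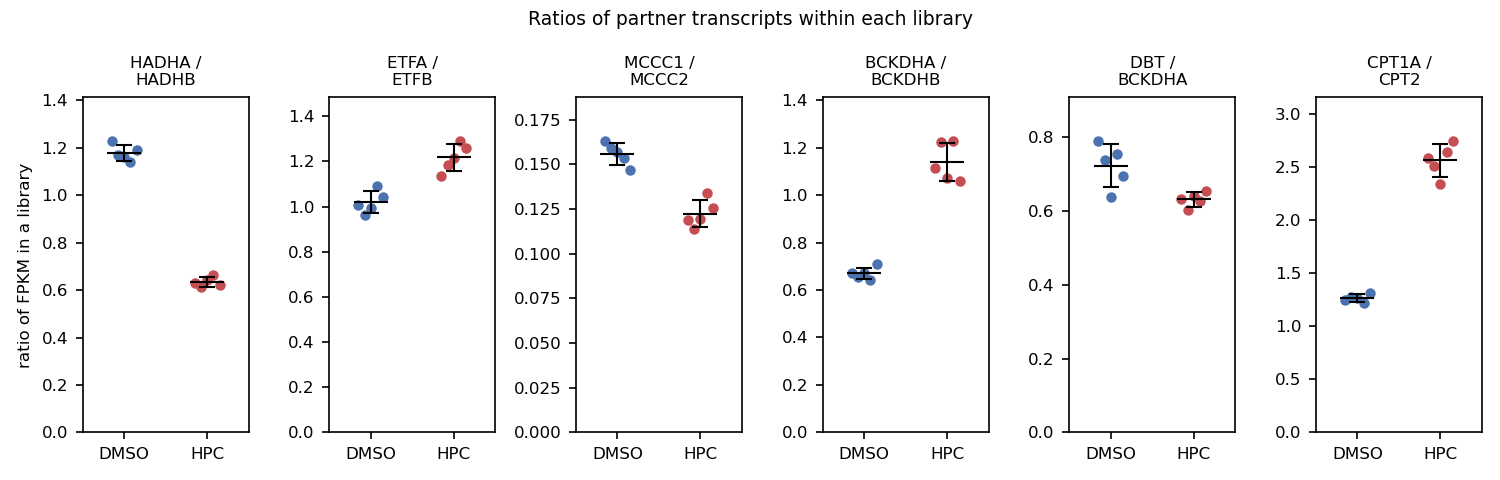
Ratio of the FPKM of 2 partner genes in each of 5 DMSO libraries (blue) and 5 HPC libraries (red), with mean and SD in black and each axis starting at 0. The HADHA to HADHB ratio lies between 1.14 and 1.23 in DMSO and between 0.613 and 0.663 in HPC, and only DBT to BCKDHA overlaps between the groups. Ratios of other gene pairs were not examined for comparison.

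The regulators are nuclear receptors that bind fatty acids and switch on many of these genes as partners of retinoid X receptors. PPARA measured 1.83, 1.80, 1.93, 2.12 and 2.03 FPKM in DMSO and 1.20, 1.44, 1.38, 1.32 and 1.45 FPKM in HPC, a lower level without overlap (log2 fold change -0.49 ± 0.060 SE, limma adjusted p = 4.03e-06). PPARD measured 2.06, 2.01, 2.01, 1.93 and 2.00 FPKM in DMSO and 2.83, 2.61, 2.82, 2.82 and 2.73 FPKM in HPC, a higher level without overlap (log2 fold change 0.45 ± 0.035 SE, adjusted p = 3.78e-08). The 2 receptor genes thus had similar FPKM in DMSO, and PPARD had a higher FPKM than PPARA in all 5 HPC libraries. Their order in abundance depends on the gene lengths used for FPKM, which are not given.

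A list of 64 other genes of the same pathways was examined beside the members, of which 63 were in the table and 45 were tested. The 45 divided into 29 lower genes, 10 higher genes and 6 that missed the threshold, with a median log2 fold change of -0.31, beside 44.8% lower and 42.9% higher among all tested genes. Of these genes 4, all lower and ACAD10 and PECR among them, passed the filter only through DMSO, so a difference was needed for them to be tested. The 12 tested genes listed beside the mitochondrial members were grouped by pathway and not by where their proteins lie. They split into 6 lower, 5 higher and 1 that did not pass, close to the split of all tested genes, with a median log2 fold change of -0.14. ACAD10, an acyl-CoA dehydrogenase family gene, fell from 1.49 ± 0.0502 to 0.426 ± 0.0170 FPKM, and CRAT, carnitine acetyltransferase, from 15.2 ± 0.252 to 7.91 ± 0.400 FPKM (SD, n = 5). ACOT1 was listed at 3.71 ± 0.200 and 1.44 ± 0.155 FPKM, with the same uncertainty as ACOT2. ACAD11, another gene of that dehydrogenase family, rose from 3.80 ± 0.126 to 6.73 ± 0.171 FPKM, and ACSL4, which activates polyunsaturated fatty acids, from 9.15 ± 0.353 to 12.2 ± 0.402 FPKM.

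Among 12 further peroxisomal genes the test found 9 lower and 1 higher, and 2 missed the threshold (median log2 fold change -0.37). Of all tested genes 44.8% were lower and 42.9% higher. SCP2, a sterol carrier and thiolase gene, fell from 4.69 ± 0.0277 to 2.08 ± 0.138 FPKM, HACL1, a lyase for branched chains, from 2.79 ± 0.0620 to 1.42 ± 0.0653 FPKM, and PECR, a reductase, from 2.23 ± 0.289 to 0.658 ± 0.0452 FPKM (SD, n = 5).

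In the branched-chain group 15 further genes were tested, with 12 lower, 1 higher and 2 short of the threshold (median log2 fold change -0.58). The shares of all tested genes were 44.8% lower and 42.9% higher. The dehydrogenase gene ALDH6A1 and the hydrolase gene HIBCH, both of valine breakdown, fell from 7.31 ± 0.278 to 2.71 ± 0.192 and from 3.44 ± 0.147 to 1.252 ± 0.0825 FPKM (SD, n = 5). OXCT1, which activates ketone bodies for use as fuel, fell from 8.05 ± 0.328 to 3.88 ± 0.143 FPKM. DLD, the lipoamide dehydrogenase shared with pyruvate dehydrogenase, fell from 11.6 ± 0.250 to 6.85 ± 0.188 FPKM, and BCKDK, the kinase that switches the complex off, from 5.09 ± 0.111 to 4.11 ± 0.178 FPKM.

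The higher gene was BCAT1, the cytosolic counterpart of BCAT2. It measured 0.509, 0.433, 0.404, 0.532 and 0.430 FPKM in DMSO and 2.32, 2.59, 2.50, 2.87 and 2.76 FPKM in HPC, a log2 fold change of 2.27 ± 0.074 SE (limma adjusted p = 4.76e-12). BCAT2 had the higher FPKM in all 5 DMSO libraries, and BCAT1 in all 5 HPC libraries. Which of these transcripts was more abundant depends on the gene lengths used for FPKM, which are not given. BCAT1 passed the filter only through its HPC values.

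**Figure D4:**
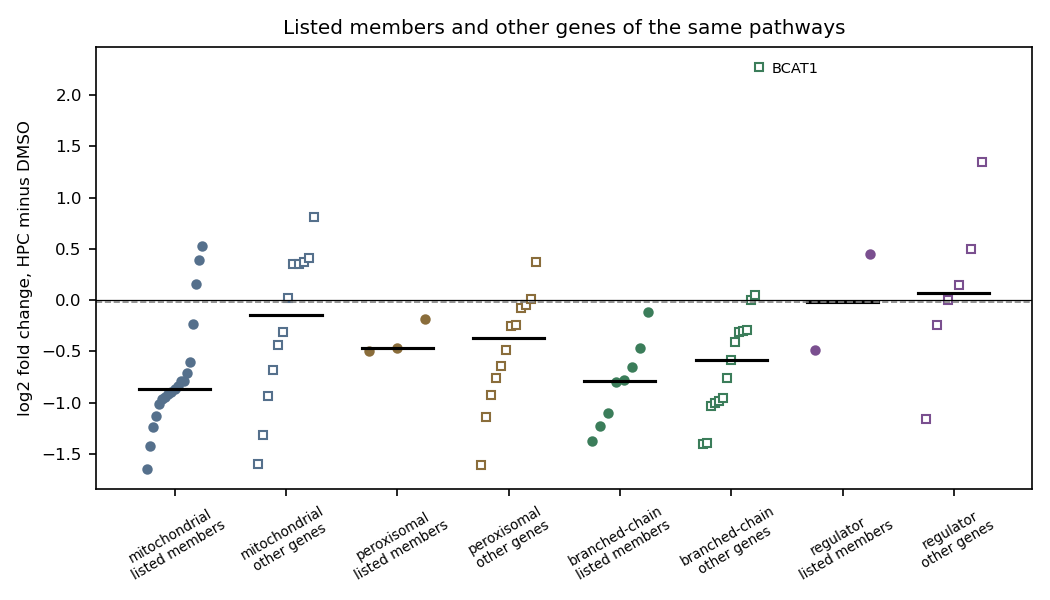
Log2 fold change, HPC minus DMSO, of the tested genes by pathway, with the listed members as filled circles, the other genes of the same pathways as open squares, and medians as black bars; the dashed line is the median of all tested genes. BCAT1 lies at 2.27, and the members' medians are -0.86, -0.47, -0.79 and -0.02 from left to right.

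Regulators and responders outside the list gave 3 higher genes, 2 lower genes and 1 short of the threshold, beside 42.9% higher and 44.8% lower among all tested genes. RXRA, a retinoid X receptor gene, fell from 5.43 ± 0.231 to 2.37 ± 0.0580 FPKM (SD, n = 5), and NRF1, a regulator of mitochondrial genes, from 1.12 ± 0.0480 to 0.934 ± 0.0632 FPKM. PPRC1, a coactivator gene related to PPARGC1A, rose from 4.42 ± 0.254 to 6.29 ± 0.180 FPKM. ESRRA, another receptor of oxidative genes, measured 3.90 ± 0.118 and 3.91 ± 0.195 FPKM (limma adjusted p = 0.968). Classical PPAR-responsive genes went in different directions. PLIN2, a lipid droplet coat gene, rose from 5.22 ± 0.473 to 13.4 ± 0.272 FPKM. ANGPTL4, which encodes a lipase inhibitor, measured 0.387 ± 0.09997 and 1.04 ± 0.0697 FPKM, and PDK4, which encodes a kinase that restrains pyruvate oxidation, 0.169 ± 0.0185 and 0.0987 ± 0.0285 FPKM, both tested only with no filter (limma adjusted p = 1.89e-06 and 0.00194). With no filter, all 11 regulators and responders outside the list were tested, and 5 were higher and 5 lower. Of all 16734 genes 31.2% were then higher and 36.2% lower. The receptor gene PPARG and the coactivator gene PPARGC1B, named after their values were seen, were among those with low FPKM values. PPARG rose from 0.117 ± 0.0130 to 0.379 ± 0.0423 FPKM and PPARGC1B fell from 0.453 ± 0.0134 to 0.213 ± 0.0287 FPKM (SD, n = 5).

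Promoter windows of 300 bases were searched on both strands for 5 short motifs. RefSeq windows were matched for 28 of the 33 members, 38 windows in all. The PPAR response element, sought as 2 copies of AGGTCA separated by any base, occurred in 0 of the 38 windows and in 0.0228% of all 35116 windows. The ERR element TCAAGGTCA also occurred in 0 member windows, against 0.353% of all windows, and the CHOP/ATF4 composite element ATTGCATCA in 0 against 0.236%. The NRF1 palindrome, GCGCA followed directly by its reverse complement, occurred in 1 member window, that of PPARA, against 1.24% of all windows. The cyclic AMP response element TGACGTCA occurred in 2 member windows, both of ACOX3, against 1.85%. Among 89 windows of the other pathway genes the composite element, the cyclic AMP response element and the NRF1 palindrome each occurred in 1, that of BCAT1, ACAD9 and ACOT13 respectively. The BCAT1 match lies on the minus strand relative to the gene. These matches are descriptions of the letters in these windows and not of bound sites. The match nearer the start in ACOX3, the member with the largest peroxisomal change, and that in BCAT1 are shown in capitals with flanking bases on each side, from chr4:8440727-8440774 and chr12:24949121-24949169, both on the minus strand.

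ACOX3: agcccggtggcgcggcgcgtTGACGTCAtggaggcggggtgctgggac

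BCAT1: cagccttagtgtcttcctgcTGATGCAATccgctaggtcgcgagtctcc

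Within groups the 33 genes were measured with a median coefficient of variation of 3.44% in DMSO and 4.72% in HPC, and between 234 and 47680 reads lay behind each value. Replicate 4 was the highest of the HPC libraries for 13 of the 33 genes, and replicate 2 the lowest for 11. In DMSO no replicate was highest for more than 10 genes or lowest for more than 9.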

How the data were processed

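Poly(A) RNA of 5 DMSO and 5 HPC libraries was sequenced as paired-end reads, per the labels. The authors deposited 1 table of FPKM for 16734 genes. The build GRCh38.p13 and the tools STAR 2.7.7a, fastp 0.23.2 and edgeR appear in the submitters' processing notes, which do not say what each did. Which counter, annotation or filter was used is not given in the sources used here. Members and lists were chosen with earlier results of these data known. All 33 members in the table are reported, and of the other pathway genes the 4 with the smallest adjusted p per group plus 9 fixed names, of which some are not reported here.

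Values were analysed as log2(FPKM + 0.1), which understates changes of low genes. Genes at 1 FPKM or more in at least 5 libraries were fitted across the whole table with limma 3.58.1 in R 4.3.3 (two-sided, robust empirical Bayes with an intensity trend) and Benjamini-Hochberg adjustment at 0.05. The procedure was tested on simulated data. Ratios of partner genes were compared with an exact permutation test over 252 assignments, whose smallest p is 0.00794. For all 15208 genes above 0 in at least 3 libraries the values were whole multiples of 1 read, within 0.001 of a read. Alternatives changed the pseudocount, filter, scaling, variance model, block, test and libraries. Tables and figures were made with pandas 2.3.3, matplotlib 3.10.9, SciPy 1.17.1 and NumPy 2.4.6 under Python 3.11.15.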

Additional observations from a re-analysis of the deposited data

Results flagged for a closer look

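In 4 of 78 groups of 5 values, over the 33 genes and 6 ratios, a library stood apart from the other 4 by more than Dixon's critical value of 0.71 of the range. That is 5.13%, where chance gives about 5%. ACADVL in DMSO replicate 2 measured 6.29 FPKM, against 5.91 to 5.98 FPKM in the other DMSO libraries. ACADS in DMSO replicate 4 measured 3.30 FPKM, against 3.65 to 3.79 FPKM. ACAA2 in HPC replicate 4 measured 9.62 FPKM, against 8.48 to 8.76 FPKM, and ECI1 in HPC replicate 4 measured 6.77 FPKM, against 7.24 to 7.39 FPKM. In each case the library stayed on its own group's side of the difference between groups.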

How the results depend on the processing

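Over 612 values of single members under the alternatives, 611 kept their direction and their side of the threshold, and CPT1A turned to -0.00031 with the non-mitochondrial sum. Cases in which a member failed the filter are not among the 612. That scaling moved the median log2 fold change of all tested genes from -0.01 to -0.19 and that of the members to -0.95, and changed the split of all calls from 4099 lower and 3922 higher to 5077 and 2929. With a filter of at least 5 FPKM fewer genes were tested, and 1836 genes were lower and 1969 higher. Of the members 12 were then lower and 2 higher, with 7 lower in the mitochondrial group, 0 in the peroxisomal group, where no member was tested, and 5 in the branched-chain group. Leaving out any 1 HPC library gave 28 lower and 4 higher members, and leaving out any 1 DMSO library 26 and 4. In the latter case HADH and ACAA1 no longer passed the filter and were not tested.

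Whether the replicate numbers pair the libraries was not tested. Deviations of libraries with the same number correlated at -0.0592 to 0.199, and those with different numbers at -0.203 to 0.145. With a replicate block 28 members were lower and 4 higher, as without it, and of all genes 4077 were lower and 3892 higher. The exact sign-flip test of the paired ratios, with 5 pairs, has a smallest p of 0.0625. Under this replicate block the log2 ratio differences were -0.89 for HADHA over HADHB, 0.26 for ETFA over ETFB, -0.35 for MCCC1 over MCCC2, 0.76 for BCKDHA over BCKDHB and 1.02 for CPT1A over CPT2 (adjusted p = 0.075 each, exact), and -0.19 for DBT over BCKDHA (adjusted p = 0.125, exact).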
